A study of Mus musculus with 5 samples.

Results

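The 10 posterior genes of the HoxA and HoxD clusters, *Hoxa9*, *Hoxa10*, *Hoxa11*, *Hoxa13*, *Hoxd8*, *Hoxd9*, *Hoxd10*, *Hoxd11*, *Hoxd12* and *Hoxd13*, were followed through cell classes of the mouse penis and limb. They were picked by gene symbol out of 32285 counted genes, with no measured value in the rule, and all 10 had unique molecular identifiers (UMIs, each standing for a captured transcript) in all 5 libraries. Droplet-based 3′ single-cell RNA-seq had been run on 3 libraries of the penis at postnatal day 6 (P6), the glans freed of its prepuce, and on 1 forelimb and 1 hindlimb library at embryonic day 15 (E15). All animals were male mice, C57BL/6N by their labels but C57BL/6J in the methods, with no other allele and no treatment named. The 3 penis libraries came from 3 mice of 2 litters, though the labels do not tie a library to a mouse, and the forelimbs and hindlimbs were both dissected from male embryos (n = 6), so the limb libraries may share embryos. How many embryos went into each is not given in the sources used here. Penis and limb also differed in age, postnatal against embryonic, so tissue and age cannot be told apart in any penis-to-limb comparison.

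Hox genes encode homeodomain transcription factors that give cells their position along the body axis and along growing appendages. In each cluster the genes lie in the order in which they are switched on: groups 9 and 10 act in the upper limb, *Hoxa11* and *Hoxd11* pattern the forearm and lower leg, and *Hoxa13* and *Hoxd13* pattern the hand, the foot and the genital tubercle, the embryonic bud of the penis. Loss of both group 13 genes leaves an embryo without digits and without external genitalia, and Hox proteins bind DNA together with TALE cofactors such as the Meis and Pbx proteins.

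The HoxD genes read along the plus strand of chromosome 2, and in the mm10 annotation *Hoxd13* lay at chr2:74668310-74671599, *Hoxd9* at chr2:74697727-74700208 and *Hoxd8* at chr2:74704615-74707933. The HoxA genes read along the minus strand of chromosome 6, with *Hoxa13* at chr6:52257694-52260880 and *Hoxa9* at chr6:52223100-52231089. *Hoxd8* and *Hoxd9* changed direction between cell classes and *Hoxa13* was the member that rose in the penis mesenchyme, so their upstream sequences are shown with that of *Hoxd13*. Each is the 250 bases before the RefSeq start site on build GRCm38.p6, 5′ to 3′ on the gene's own strand. They lie at chr2:74704365-74704614 (plus) for *Hoxd8*, chr2:74697513-74697762 (plus) for *Hoxd9*, chr2:74667975-74668224 (plus) for *Hoxd13* and chr6:52260881-52261130 (minus) for *Hoxa13*. For *Hoxd9* and *Hoxd13* the RefSeq start differs from that of the mm10 annotation given above. The *Hoxd9* stretch runs past the annotated start and the *Hoxd13* stretch ends short of it. Distances between genes below use the mm10 annotation. Capitals mark matches to the TATA-box letters TATAAA.
Hoxd8: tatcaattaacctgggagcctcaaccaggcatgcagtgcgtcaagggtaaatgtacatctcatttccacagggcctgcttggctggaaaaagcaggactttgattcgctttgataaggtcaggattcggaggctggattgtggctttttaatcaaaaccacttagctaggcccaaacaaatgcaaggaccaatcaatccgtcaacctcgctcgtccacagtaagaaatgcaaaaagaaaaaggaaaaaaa
Hoxd9: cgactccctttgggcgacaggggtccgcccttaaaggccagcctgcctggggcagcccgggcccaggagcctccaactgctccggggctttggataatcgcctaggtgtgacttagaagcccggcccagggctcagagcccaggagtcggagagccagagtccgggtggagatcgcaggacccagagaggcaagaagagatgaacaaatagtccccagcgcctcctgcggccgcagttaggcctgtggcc
Hoxd13: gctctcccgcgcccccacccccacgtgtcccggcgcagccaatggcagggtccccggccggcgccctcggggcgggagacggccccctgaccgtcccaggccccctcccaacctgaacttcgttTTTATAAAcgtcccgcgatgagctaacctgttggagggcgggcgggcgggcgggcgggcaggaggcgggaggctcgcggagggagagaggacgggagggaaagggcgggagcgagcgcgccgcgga
Hoxa13: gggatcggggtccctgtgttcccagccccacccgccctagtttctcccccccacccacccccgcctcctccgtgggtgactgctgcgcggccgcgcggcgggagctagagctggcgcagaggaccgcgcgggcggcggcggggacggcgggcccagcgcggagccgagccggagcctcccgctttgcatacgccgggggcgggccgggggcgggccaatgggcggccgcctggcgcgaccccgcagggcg

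The stretch before *Hoxd8* was the poorest in G and C, at 44.4%, against 65.2% for *Hoxd9*, 74.4% for *Hoxd13* and 80.0% for *Hoxa13*. The motifs looked for on both strands were TTTATNG, bound by posterior Hox proteins, TGATTNAT, bound by Hox with Pbx, and TATAAA, which can share letters with the first. They were present in 9.81%, 2.82% and 12.4% of 32851 RefSeq upstream stretches of this length. Among the 4 printed, only *Hoxd13* held a match, 2 overlapping TATAAA matches on opposite strands, in a run that began 126 bases before its RefSeq start. For the other genes this says only that these letters are not in the window.

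After filtering, 5708 to 7085 cells of each penis library and 20514 to 22057 cells of each limb library were kept, with median depths of 8792 to 9909 and 5358 to 6057 UMIs per cell. Pairs of libraries shared 20 to 203 cell barcodes, at most 0.825% of the smaller library. Cells were assigned to classes by marker genes, and the median mesenchyme cell held 8 to 9 of 10 mesenchyme markers (2973 to 11759 cells a library). Cells of the endothelium (432 to 541), epithelium (268 to 473), glia (138 to 166) and leukocytes (218 to 1537) held more of their own markers, 4 to 9 at the median, than of the mesenchyme's, 1 to 3. Cartilage-gated cells of the penis (132 to 159) were less distinct, with a median of 6 cartilage markers but also 9 of 10 mesenchyme markers, against 8 to 9 and 4 to 5 in the limb. Cells gated as mural, tendon, bone or red blood cells carried 6 to 9 of 10 mesenchyme markers, so those labels were not borne out and these classes were not compared between tissues. They were not counted as mesenchyme either. Of them 787 to 1050 cells of each penis library and 675 to 702 of each limb library were mural-gated. Muscle, with 1868 forelimb and 1436 hindlimb cells but at most 2 cells in a penis library, was not compared between tissues either. Levels are CPM, the UMIs of a gene scaled to a common total (counts per 1e6 UMIs) of the same class in the same library. Since 3′ UMIs are not scaled by gene length, and capture may differ between genes, levels were compared between cells and tissues but not between genes.

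Leukocytes served as a measure of free RNA, which gives every droplet some UMIs of abundant transcripts. *Hoxa9* and *Hoxa10* also act in blood progenitors, so for these genes the leukocyte level need not be free RNA alone. The leukocyte-gated cells held 0 to 2.46 CPM of *Hoxd8*, 0 to 1.47 of *Hoxd9*, 2.64 to 8.62 of *Hoxa13*, 5.79 to 11.7 of *Hoxd11* and 6.12 to 17.2 of *Hoxd13*. *Hoxa9* stood there at 4.85 to 10.6 CPM and *Hoxa10* at 10.3 to 16.6 CPM. Levels in other classes that lie in these ranges are not read as expression.

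The mesenchyme of the penis held more *Hoxa13* than that of the limb, and far less *Hoxd8* and *Hoxd9*. *Hoxa13*, required for the distal limb and the genital tubercle, measured 51.2, 46.8 and 51.7 CPM in the 3 penis libraries, against 16.8 (forelimb) and 23.2 (hindlimb) in the limb. Every penis library stood above both limb libraries, and the change on the log2 scale was 1.30 ± 0.12 (SE; n = 3 penis and 2 limb libraries; Benjamini-Hochberg adjusted p = 8.39e-06, edgeR's quasi-likelihood test). A gene is said to rise or fall below where the adjusted p of this test was under 0.01 and the change exceeded 1 on the log2 scale.

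*Hoxd8*, an early gene of the HoxD cluster that acts in the trunk, was counted 51, 42 and 43 times in the penis mesenchyme, or 1.51, 1.22 and 1.63 CPM, against 14.5 CPM for the forelimb and 5.72 for the hindlimb. The penis values lay within the range of the leukocytes, so no *Hoxd8* above free RNA was detectable in this class. The limb libraries stood above all 3 penis libraries but differed from each other, and the change was -2.82 ± 0.37 (SE; edgeR's quasi-likelihood test, adjusted p = 0.000113). Without the forelimb it was -1.99, and without the hindlimb -3.35.

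*Hoxd9*, which takes part in the proximal limb, showed the same order, with 3.80, 3.70 and 3.25 CPM in the penis, 12.6 (forelimb) and 5.99 (hindlimb) in the limb, and fell by 1.39 ± 0.28 on the log2 scale (edgeR's quasi-likelihood test, adjusted p = 0.0015). This fall depended on the forelimb: without it the change was -0.74 and no longer passed, and without penis replicate 3 the adjusted p was 0.0116.

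Of the 10 members, 1 rose and 2 fell in the mesenchyme, beside 12.3% of the 19486 genes tested that rose and 13.1% that fell. The median member differed by 0.29 on the log2 scale and the median gene by 0.01. *Hoxa9*, *Hoxa11*, *Hoxd11* and *Hoxd13* passed the p-value limit with higher penis levels but differed by less than 1 on the log2 scale, at 0.81 ± 0.06, 0.42 ± 0.11, 0.61 ± 0.11 and 0.66 ± 0.06 (SE). With *Hoxa13* they make 5 of 10 members past the p-value limit on the higher side, where 29.7% of all genes were, and 29.8% were on the lower side.

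*Hoxd13*, the last gene of its cluster and a driver of digit formation, measured 76.9, 76.8 and 80.5 CPM in the penis against 46.7 and 50.8 in the forelimb and hindlimb. *Hoxd11*, which patterns the middle limb segment, measured 73.7, 71.5 and 71.1 CPM against 53.8 and 39.6. In both genes the penis libraries lay close together and above the limb. The partner of *Hoxd11* in that segment, *Hoxa11*, stood at 32.5, 29.8 and 30.2 CPM against 19.4 and 26.3, and *Hoxa9*, which with *Hoxd9* acts in the proximal limb, at 52.8, 52.2 and 57.3 against 28.9 and 31.9.

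The remaining 3 members differed little. *Hoxa10*, which acts in the upper limb segment and the reproductive tract, gave 82.4, 77.6 and 73.6 CPM in the penis and 61.6 and 83 in the limb, a change of 0.09 ± 0.11. *Hoxd10*, which overlaps it in the limb, differed by 0.11 ± 0.16 and *Hoxd12*, which has a lesser part in the digits, by 0.16 ± 0.08 (SE). Counted without a model, 6 members lay higher in every penis library than in both limb libraries and 2 lower, while 40.6% and 39.4% of the 19645 genes with at least 50 UMIs over the 5 libraries did so. The same floor of 50 UMIs holds for such shares in the other classes.

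**Figure D1:**
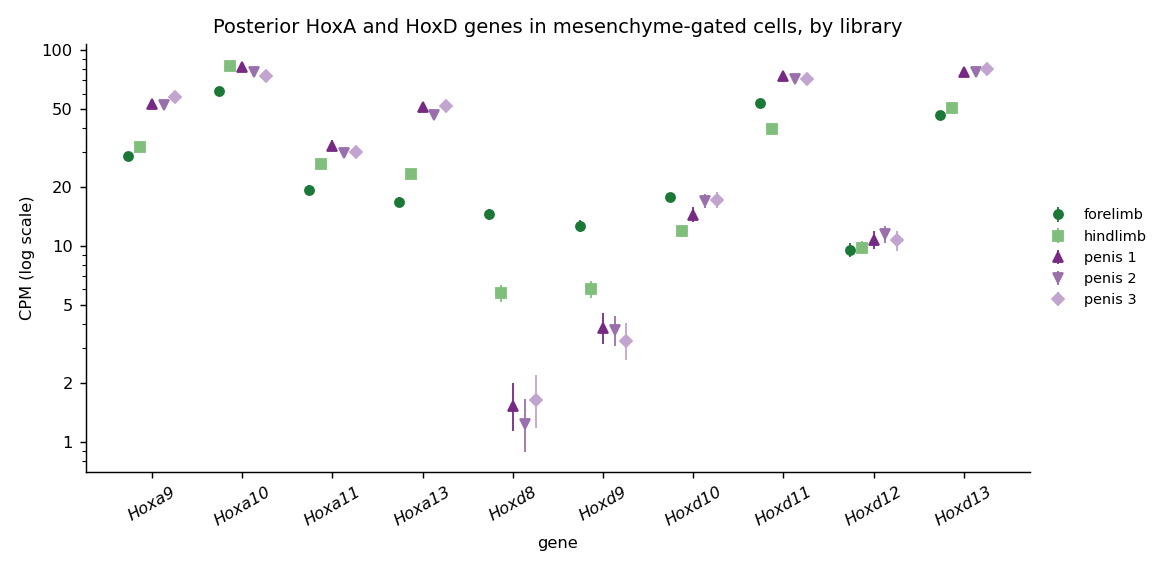
CPM (log axis) of the 10 genes in mesenchyme-gated cells, 1 point per library, with vertical lines for the 95% Poisson interval of the count. *Hoxa13* sits at 46.8 to 51.7 in the penis and 16.8 to 23.2 in the limb, while *Hoxd8* sits at 1.22 to 1.63 and 5.72 to 14.5.

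The share of mesenchyme-gated cells with a UMI depends on depth, so each cell was thinned to 2000 UMIs and shallower cells were left out, which kept 2886 to 3537 penis and 10508 to 11167 limb cells. *Hoxa13* was then seen in 9.52%, 8.90% and 9.72% of penis cells and in 3.77% of forelimb and 4.89% of hindlimb cells. Before thinning the shares were 34.4%, 32.3% and 33.2% against 8.11% and 12.1%. *Hoxa13* in leukocytes at the same 2000 UMIs was seen in 0.353% to 1.5% of cells. *Hoxd8* was seen in 0.246% to 0.310% of penis cells, 2.59% of forelimb and 0.996% of hindlimb cells. At least 1 of the 10 genes was seen in 52.4%, 51.8% and 52.8% of thinned penis cells, and in 40.9% and 40.7% of thinned limb cells.

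In the epithelium, endothelium and glia *Hoxd8* and *Hoxd9* were higher in the penis than in the limb. In the penis epithelium *Hoxd8* was counted 148, 172 and 121 times, giving 40.1, 40.6 and 42.4 CPM, while the limb epithelium gave 7 and 9 UMIs, or 5.00 and 3.95 CPM. The penis libraries lay close together and well above the limb, with a change of 3.29 ± 0.24 (SE; edgeR's quasi-likelihood test, adjusted p = 2.02e-06). The mesenchyme of the same penis libraries held at most 1.63 CPM and their leukocytes at most 2.46. Limb cells of the epithelium were less distinct, with medians of 5 (forelimb) and 4 (hindlimb) epithelial markers against 6, 6 and 7 in the penis. At the cut of 3 markers stood 29.9% of forelimb and 34.7% of hindlimb cells, against 16.7%, 19.5% and 21.1% in penis replicates 1 to 3. The part of this gate difference in the changes of the epithelium was not tested.

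*Hoxd9* in the epithelium reached 34.2, 25.3 and 38.9 CPM in the penis against 6.43 and 2.19 in the limb (9 and 5 UMIs), a rise of 3.12 ± 0.37 (SE; edgeR's quasi-likelihood test, adjusted p = 7.85e-05). With so few limb UMIs the size was uncertain, at 2.36 without the hindlimb and 3.95 without the forelimb. *Hoxa9* was the third member to rise, at 121, 103 and 142 CPM in the penis against 11.4 (forelimb) and 35.5 (hindlimb), a change of 2.33 ± 0.28 (adjusted p = 9.12e-05 in the same edgeR test). The forelimb and hindlimb epithelium themselves lay apart for *Hoxa9*, and the change was 3.44 without the hindlimb and 1.86 without the forelimb.

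Thus 3 of the 10 members rose in the epithelium and none of the 10 fell, beside 5.39% and 5.68% of 13208 genes. DESeq2 called the same numbers, and at an unadjusted p under 0.05 in edgeR 1 member, *Hoxd12*, was lower. By their levels alone, of 9 members with at least 50 UMIs, 4 lay above and 1 below both limb libraries in every penis library, beside 25.5% and 29.9% of genes. The 3 that rose all belong to paralog groups 8 and 9. At 2000 UMIs, *Hoxa9* was seen in 18.8%, 16.5% and 20.5% of penis epithelial cells and in 2.25% and 6.08% of limb ones. *Hoxd8* was seen in 7.84%, 7.57% and 6.93% against 1.17% and 0.473%. Other members lay closer together: *Hoxd13* stood at 21.4, 20.5 and 14.4 CPM in the penis against 22.1 and 21.9, a change of -0.14, and *Hoxd11* and *Hoxa10* differed by -0.11 and -0.02. Leukocytes held a mean of 15.2 CPM of *Hoxd13* in the penis and 6.74 in the limb. The penis epithelium thus lay near that level and the limb epithelium above it, so the small change is not read as similar expression. *Hoxd12* was at 0 of 2855264 UMIs in penis replicate 3, which allows up to 1.05 CPM, and at 7 to 11 UMIs in the other 4 libraries, with a change of -1.65 ± 0.70 that did not pass (edgeR, adjusted p = 0.102). *Hoxa13* measured 15.2, 15.1 and 11.9 CPM against 5.72 and 11, a change of 0.75 ± 0.31 that did not pass either (edgeR, adjusted p = 0.0865).

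The endothelium of both tissues carried *Hoxd8* and *Hoxd9*, and the penis more. *Hoxd8* measured 67.3, 46.4 and 54.0 CPM in the penis and 27.6 and 26.9 in the limb, a rise of 1.06 ± 0.15 (SE; edgeR's quasi-likelihood test, adjusted p = 4.21e-05). All penis libraries stood above the limb, but the rise was close to the limit of 1. It was 0.90 without penis replicate 1, 0.74 with stricter gates and 0.93 without the deepest 5% of cells. *Hoxd9* stood at 44.2, 34.4 and 46.0 CPM against 25.4 and 21.2, a change of 0.85 ± 0.14 that passed the p-value limit only, a limit that 19.6% of genes passed on the higher and 20.3% on the lower side.

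The endothelium was also the class in which *Hoxa10*, *Hoxa11* and *Hoxd11* were lower in the penis. *Hoxa10* fell by 1.42 ± 0.19 on the log2 scale, from 27.0 and 41.1 CPM in forelimb and hindlimb to 14, 12.2 and 11 in the penis (edgeR's quasi-likelihood test, adjusted p = 2.45e-05). *Hoxa11* fell by 1.20 ± 0.24 and *Hoxd11* by 1.09 ± 0.21 (SE; adjusted p = 0.000766 and 0.000661 in the same edgeR test). In the penis endothelium all 3 lay in or just above the range of the leukocytes, with *Hoxa11* at 4.28 to 5.55 CPM against 2.68 to 5.54 and *Hoxd11* at 7.91 to 12.8 against 5.79 to 11.7. The limb cells of this class were less distinct, with medians of 7 endothelial and 3 mesenchyme markers against 9 and 2 in the penis. At the cut of 3 markers stood 31.2% of forelimb and 35.5% of hindlimb cells, against 10.98%, 10.18% and 10.19% in penis replicates 1 to 3. All 3 genes had a higher mean CPM in the mesenchyme than in the endothelium of both tissues. The part of this gate difference in the 3 falls was not tested. The call for *Hoxa11* was lost without the hindlimb (-1.02) and with looser gates (-0.74). That for *Hoxd11* was lost without the forelimb (-0.82), without penis replicate 3 (-0.93) and with looser gates (-0.45). The *Hoxd11* call was also lost without the deepest 5% of cells (-0.88) and with every gene that had a UMI (-1.05, adjusted p = 0.0211 in edgeR). In all 1 member rose and 3 fell, beside 8.44% and 10.6% of 14511 genes. By levels alone 3 lay above and 4 below both limb libraries in every penis library, beside 34.4% and 35% of genes.

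Glial cells, a class compared only after the data had been seen, also held more *Hoxd8* in the penis. Its 79, 82 and 79 UMIs in the penis gave 51.3, 45.7 and 57.8 CPM, against 15 and 11 UMIs or 11.4 and 8.60 CPM in the limb. The libraries of the tissues did not overlap, and the rise was 2.42 ± 0.24 (SE; edgeR's quasi-likelihood test, adjusted p = 3.66e-06). *Hoxd11* rose by 1.56 ± 0.28, from 7.63 and 10.2 CPM, inside the leukocyte range, to 22.7, 27.3 and 24.9 CPM, a call lost without the forelimb (edgeR, adjusted p = 0.0113). *Hoxd9* rose by 1.20 ± 0.31 and *Hoxa9* fell by 2.06 ± 0.45, to 1.95 to 5.86 CPM in the penis, under the leukocyte levels of the same libraries, but DESeq2 called neither. With looser gates the *Hoxa9* change turned to 0.029, and without the deepest 5% of cells it was -1.65 and not called. *Hoxd9* was not called with looser gates (1.15) or library totals alone (1.12). The *Hoxd9* call was also lost without penis replicate 1, penis replicate 2, the forelimb or the hindlimb (edgeR, adjusted p = 0.0233, 0.0311, 0.0476 and 0.0420), and that of *Hoxa9* without penis replicate 2 or the hindlimb (0.0141 and 0.0834). Of 7 members tested in glia 3 rose and 1 fell, beside 8.67% and 7.16% of 11002 genes, and *Hoxa11*, *Hoxa13* and *Hoxd12*, with at most 5 UMIs a library, were not tested. By levels alone, of 6 members with at least 50 UMIs, 3 lay above and 1 below both limb libraries, beside 27.5% and 33.6% of genes.

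**Figure D2:**
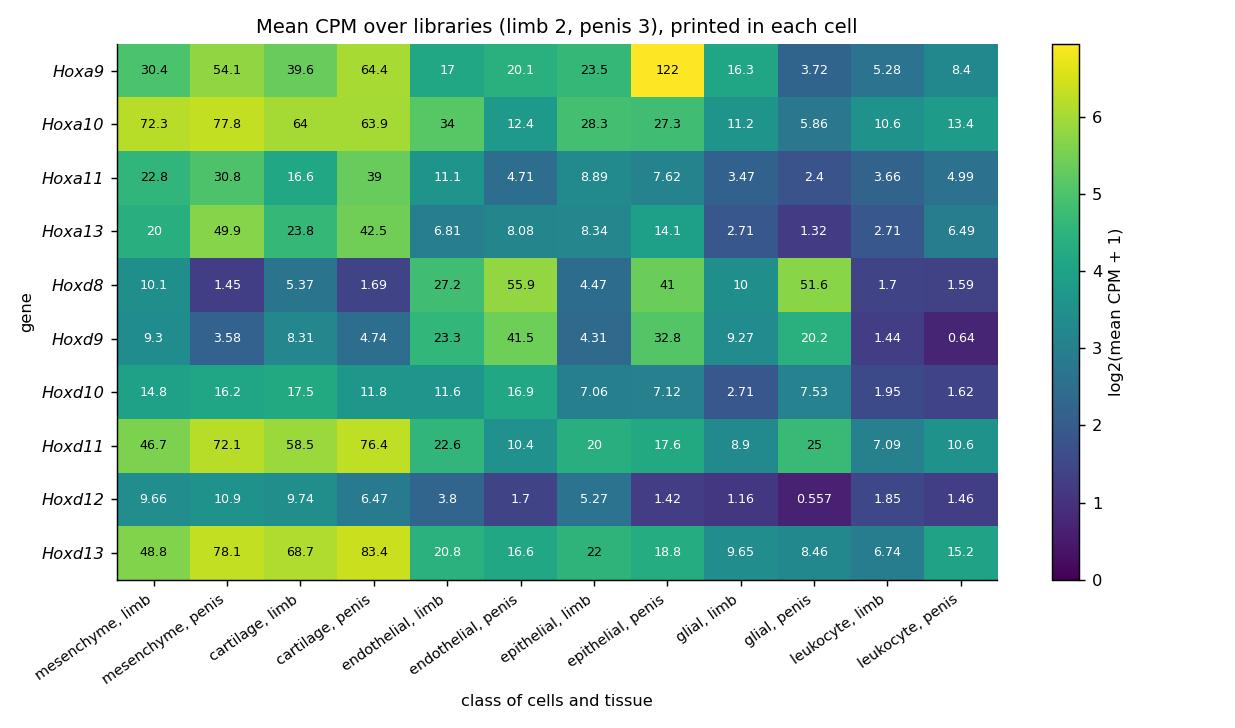
Mean CPM of each gene over the 2 limb and the 3 penis libraries in 6 cell classes, printed in each cell and coloured by log2(mean CPM + 1). *Hoxd8* runs from 1.45 in penis mesenchyme to 55.9 in penis endothelium, 41 in penis epithelium and 51.6 in penis glia, and *Hoxa13* is highest in penis mesenchyme at 49.9.

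In cartilage-gated cells *Hoxa11* was the member that rose. *Hoxa11*, whose loss shortens the forearm skeleton together with that of *Hoxd11*, rose by 1.25 ± 0.18 on the log2 scale, with 41.3, 29.6 and 46.2 CPM in the penis and 14.8 and 18.4 in the limb (edgeR's quasi-likelihood test, adjusted p = 4.3e-05). With looser gates it was 1.09 and not called (edgeR, adjusted p = 0.0144). Those gates, all loosened at once, left only 56 to 63 penis cells a library in this class. *Hoxa13* measured 38.5, 41.1 and 47.8 CPM against 19.2 and 28.4, a change of 0.86 ± 0.18 that was 1.15 and called without the hindlimb. The penis libraries were above the limb for both genes, though the penis cells of this class also carried the mesenchyme markers, and the part of those cells in the result was not tested. By levels alone 5 members lay above and 2, *Hoxd8* and *Hoxd12*, below both limb libraries, beside 25.6% and 35.3% of genes. Of 8 members tested 1 rose and none of the 8 fell, by edgeR and by DESeq2, beside 10.1% and 7.54% of 11728 genes called. At an unadjusted p under 0.05 in edgeR 5 were higher and 0 lower, and *Hoxd8* (1.21 to 2.47 CPM in the penis against 7.09 and 3.65) and *Hoxd9* (3.63 to 5.77 against 11.3 and 5.33) were under the limit for testing. No member's difference between cartilage and mesenchyme was called by edgeR, beside 3.84% and 4.38% of genes. That of *Hoxa11*, 0.81 ± 0.16 higher in cartilage (adjusted p = 0.000873, edgeR), passed the p-value limit only, and at an unadjusted p under 0.05 the changes of *Hoxa13*, *Hoxd10* and *Hoxd13* were lower there.

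Whether the change differed between classes was tested directly, with the mesenchyme, cartilage, endothelium and epithelium in 1 fit. Glia were not in this fit, so the difference of their changes from those of the mesenchyme was not tested. The penis-to-limb change of *Hoxd8* was higher in the endothelium than in the mesenchyme by 3.79 ± 0.27 on the log2 scale (adjusted p = 1.07e-09), and higher in the epithelium than in the mesenchyme by 5.94 ± 0.41 (adjusted p = 1.41e-09; SE, edgeR's quasi-likelihood test). For *Hoxd9* the differences were 2.18 ± 0.22 and 4.37 ± 0.36. *Hoxd8* and *Hoxd9* thus moved in opposite directions in the mesenchyme and in these lining tissues, with *Hoxd9* in the endothelium past the p-value limit only.

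*Hoxa9* also rose more in the epithelium than in the mesenchyme, by 1.49 ± 0.22. *Hoxa10*, *Hoxa11*, *Hoxa13* and *Hoxd11* had a lower change in the endothelium than in the mesenchyme, with differences of -1.51 ± 0.17, -1.62 ± 0.22, -1.03 ± 0.23 and -1.70 ± 0.18 (SE). The *Hoxa13* call was lost without penis replicate 1 or the hindlimb (edgeR, adjusted p = 0.0185 and 0.0985) and with looser or stricter gates, that of *Hoxd11* was lost with looser gates (-0.95), and *Hoxd13* (-0.98) gained a call under 5 alternatives. Against the mesenchyme, then, 2 members had a higher and 4 a lower change in the endothelium, beside 4.74% and 7.47% of genes, and 3 a higher and none of the 10 a lower change in the epithelium, beside 3.46% and 3.98%. At an unadjusted p under 0.05 in edgeR 3 members, *Hoxd11*, *Hoxd12* and *Hoxd13*, had a lower one there. With every deposited barcode 3 were called lower there, *Hoxa13* (-1.01), *Hoxd12* (-2.11) and *Hoxd13* (-1.18), and with every gene that had a UMI *Hoxd12* was (-1.85).

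**Figure D3:**
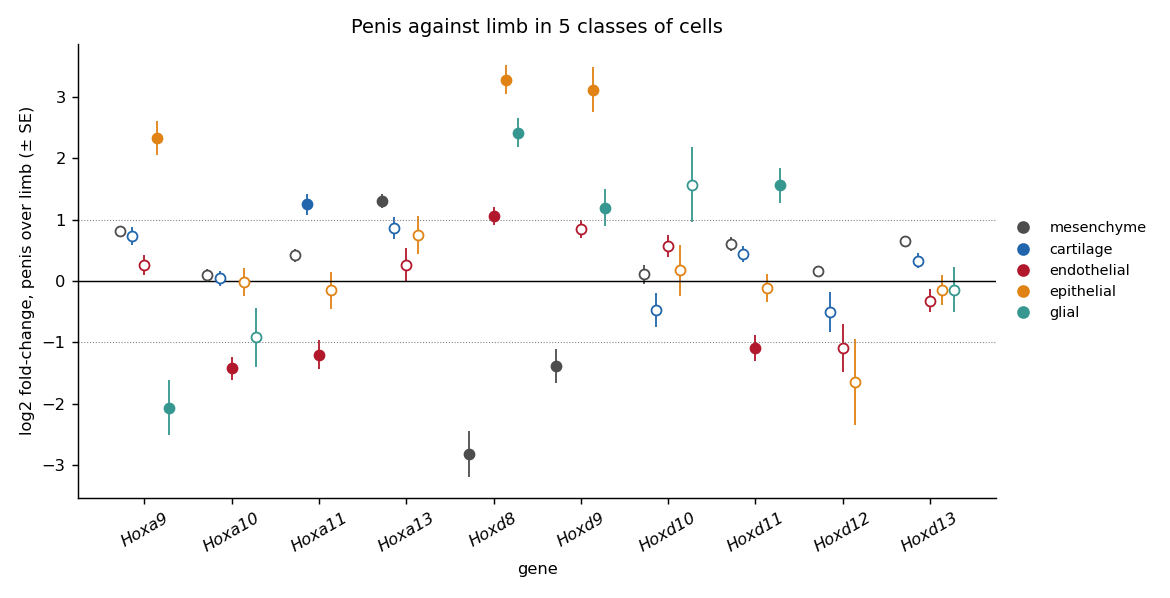
Penis-to-limb log2 fold change of each gene in 5 cell classes, with lines for ± 1 SE, filled where the adjusted p was under 0.01 and the change over 1. *Hoxd8* spans -2.82 in the mesenchyme to 3.29 in the epithelium, and *Hoxd13* stays between -0.32 and 0.66. The mean *Hoxd13* levels of penis endothelium and glia, 16.6 and 8.46 CPM, lie in the leukocyte range and are not read as expression.

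Over all kept cells *Hoxd8* measured 10.2, 9.38 and 10.7 CPM in the penis libraries, against 10.9 (forelimb) and 5.64 (hindlimb), so the penis lay inside the limb range. Yet mesenchyme-gated cells, 50.5% to 53.3% of kept cells in every library, held 62.6% of the *Hoxd8* UMIs of the forelimb, 47.2% of those of the hindlimb and 6.57% to 7.80% of those of the penis. The exact binomial 95% intervals of these shares reached from 60.2% to 65.1% in the forelimb and from 5.46% to 9.46% in penis replicate 1. The makeup of the tissues differed too: endothelial cells were 7.21% to 7.65% of penis and 2.35% to 2.45% of limb cells, epithelial cells 5.48% to 6.68% and 1.22% to 1.78%, and glial cells 2.12% to 2.65% and 0.673% to 0.753%. What each of level and makeup adds to the whole-tissue value was not tested. In the penis endothelial cells held 35.7% to 50.2% of the *Hoxd8* UMIs, epithelial cells 21.1% to 26.9% and glial cells 11.3% to 14.3%. *Hoxa13* had 63.7%, 64.5% and 65.3% of its UMIs in penis mesenchyme and 63.0% and 60.2% in limb mesenchyme, but 2.06% to 2.77% in penis cartilage against 11.5% and 17.8% in limb cartilage, which held 2.09% to 2.31% and 9.16% and 12.9% of the cells.

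Neighbouring genes of *Hoxd8* were examined as a fixed list of the 10 other HoxA and HoxD genes. *Hoxd3* and *Hoxd4*, which lie beyond *Hoxd8* on the far side from *Hoxd13* and act in the neck vertebrae, fell in the mesenchyme by 1.90 ± 0.31 and 1.44 ± 0.27 on the log2 scale. They rose in the epithelium by 3.30 ± 0.52 and 3.67 ± 0.55 (SE; edgeR's quasi-likelihood test, adjusted p = 0.000613 and 0.000435). *Hoxd4* stood at 17.3, 12.3 and 23.1 CPM in the penis epithelium against 2.86 and 0.439 in the limb. Of 7 list genes tested in the mesenchyme these were the 2 that fell and none of the 7 rose (2 did at an unadjusted p under 0.05 in edgeR, 0 by DESeq2), with a list median of -0.05 against 0.01 for all genes, and of 5 tested in the epithelium 2 rose, with a median of 1.07 against 0.02. In the endothelium 1 of 5, *Hoxa7*, rose, while *Hoxd3* and *Hoxd4*, at 0.95 and 0.98, passed the p-value limit only. In cartilage neither of the 2 tested was called by edgeR or DESeq2 (1 at an unadjusted p under 0.05), and in glia none had the counts to be tested.

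Of 13 transcripts beside or antisense to the clusters, *Hoxd3os1* rose in the epithelium (2.92 ± 0.30), endothelium (1.27 ± 0.17) and glia (1.38 ± 0.31), and *Haglr* fell in the mesenchyme by 3.11 ± 0.63. Both are long non-coding RNAs of the HoxD cluster. *Hottip*, a non-coding RNA transcribed beside *Hoxa13*, rose in the mesenchyme by 1.03, as did *Hoxaas3* (1.23) and *Hotairm1* (1.21). That makes 3 of 11 tested that rose and 1 that fell in the mesenchyme, 1 and 1 of 8 in the epithelium, 1 and 2 of 8 in the endothelium and 1 of 5 that rose in glia. DESeq2 called none of those in glia, did not call the fall in the epithelium, and called 1 of the 2 falls in the endothelium. In cartilage 0 of 6 passed in edgeR or DESeq2, and 2 did at an unadjusted p under 0.05, 1 in each direction. *Hoxd3os1* overlaps *Hoxd8*, and *Hoxa11os* overlaps *Hoxa11*, on the opposite strand, and whether the counting used strand is not given in the sources used here, so the values within these pairs are uncertain.

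Between the limbs, the HoxD ratios fell with distance from *Hoxd13*. With 1 library per limb there is no replicate check, and the intervals cover counting error only. In the mesenchyme the hindlimb-to-forelimb ratio was 0.395 (95% interval 0.351 to 0.445) for *Hoxd8*, whose start lies 36.3 kb from that of *Hoxd13*, 0.475 (0.421 to 0.535) for *Hoxd9* at 29.4 kb, 0.671 (0.613 to 0.734) for *Hoxd10* at 23.6 kb and 0.735 (0.699 to 0.773) for *Hoxd11* at 11.2 kb. The ratios of *Hoxd12* and *Hoxd13* were 1.03 (0.921 to 1.15) and 1.09 (1.04 to 1.14). The intervals of *Hoxd13* and *Hoxd12*, of *Hoxd11* and *Hoxd10* and of *Hoxd9* and *Hoxd8* overlapped. *Hoxd8* and *Hoxd9* were more than 2-fold lower in the hindlimb, a size that 0.488% of 18236 genes reached, and 0.729% were 2-fold higher there.

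No HoxA member was lower in the hindlimb mesenchyme. *Hoxa10*, *Hoxa11* and *Hoxa13* gave ratios of 1.35 (1.29 to 1.4), 1.36 (1.26 to 1.46) and 1.38 (1.28 to 1.5), and *Hoxa9* 1.11 (1.04 to 1.18). The low *Hoxd8* and *Hoxd9* of the hindlimb were repeated in cartilage, at 0.516 and 0.473. In the endothelium the *Hoxd8* ratio was 0.973 (0.762 to 1.24), so no limb difference was detectable there at this depth. In the epithelium *Hoxa9* gave a ratio of 3.11 (1.80 to 5.70).

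**Figure D4:**
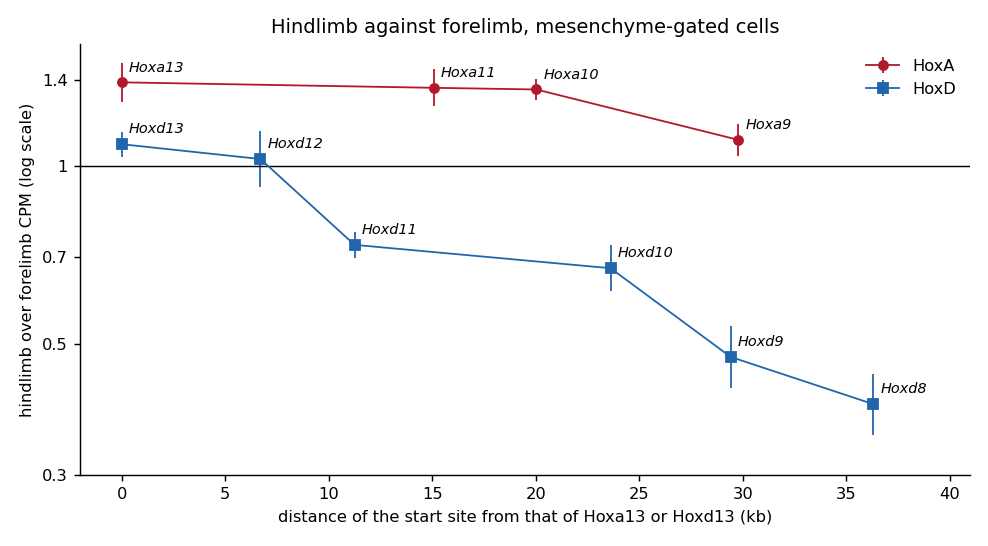
Ratio of hindlimb to forelimb CPM (log axis) in mesenchyme-gated cells against the distance in kb between each gene's start and that of *Hoxa13* or *Hoxd13*, with 95% intervals for counting error. The HoxD ratios run from 1.09 at *Hoxd13* down to 0.395 at *Hoxd8*, while the HoxA ratios lie between 1.11 and 1.38.

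Within single mesenchyme cells the genes of the limb kept apart or together in a way the penis did not show. At 2000 UMIs a cell, *Hoxd13* was seen in 4.22% of forelimb and 4.03% of hindlimb cells with *Hoxa11*, and in 8.96% and 9.72% of those without. In the penis it was seen in 15.0%, 13.6% and 14.5% of cells with *Hoxa11* and in 13.6%, 13.5% and 14.3% without. The log2 odds ratio of the pair was -1.16 and -1.36 in the limb and 0.16, 0.02 and 0.02 in the penis, so the libraries of the tissues did not overlap. At 4000 UMIs a cell the limb values were -0.93 (forelimb) and -1.64 (hindlimb), and the penis values stayed between -0.009 and 0.18. These are descriptions of cells within 5 libraries, with no test.

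Genes of the distal limb were seen together there. For *Hoxa13* and *Hoxd13* the log2 odds ratio was 1.42 (forelimb) and 1.24 (hindlimb), and 0.22, 0.16 and 0.23 in the penis. For *Hoxd12* and *Hoxd13* it was 1.72 and 2.23 against -0.02, -0.08 and 0.04, and for *Hoxd11* and *Hoxd12* 1.44 and 2.14 against 0.33, 0.33 and 0.24. At 4000 UMIs the first of these pairs gave 1.75 and 1.57 in the limb, and *Hoxd12* with *Hoxd13* gave 2.08 and 2.76. Every pair of HoxD neighbours named here was joined more closely in both limbs than in any penis library. *Hoxd8* and *Hoxd13* were the pair most apart in the limb, at -1.91 and -1.75, though these rest on only 7.36 and 3.18 cells with both genes on average after thinning, with too few *Hoxd8* cells in the penis mesenchyme for a value.

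**Figure D5:**
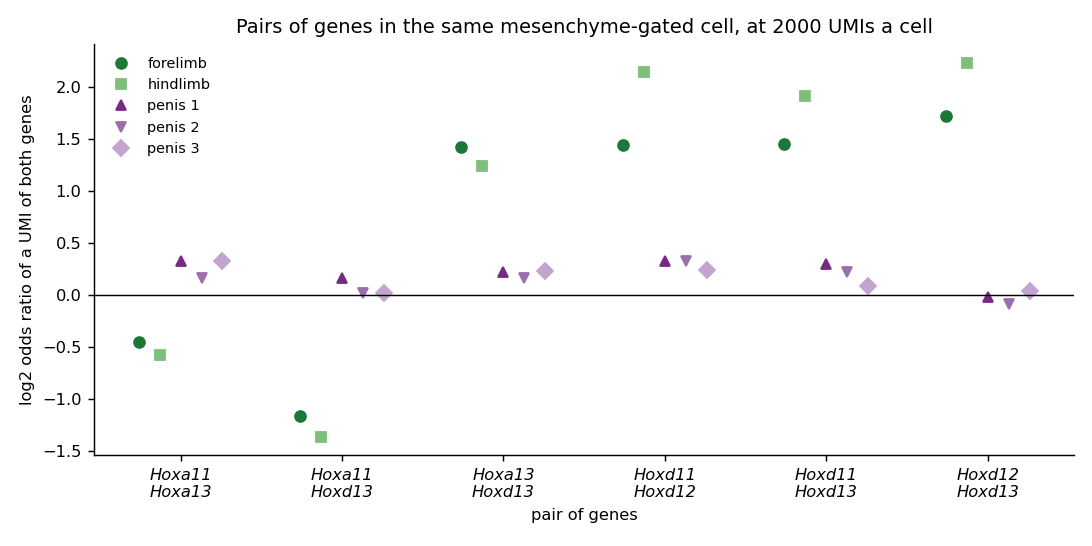
Log2 odds ratio that a mesenchyme-gated cell thinned to 2000 UMIs holds both genes of a pair, 1 point per library, where 0 means that the genes are seen together as often as their shares alone give. Limb points lie at -1.16 and -1.36 for *Hoxa11* with *Hoxd13* and at 1.42 and 1.24 for *Hoxa13* with *Hoxd13*, while penis points of the 6 pairs lie between -0.08 and 0.33.

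The same division was seen in the levels of *Hoxd13*. Forelimb cells with *Hoxa11* but no *Hoxa13* UMI held 25.6 CPM of *Hoxd13* and those with *Hoxa13* but no *Hoxa11* held 119, and the hindlimb values were 17.0 and 120. In the penis *Hoxd13* stood at 79.8, 78.5 and 81.8 CPM in the first kind of cell and at 81.1, 81.9 and 88.4 in the second. For *Meis1*, a TALE cofactor of the proximal limb, the contrast was another one, with cells of neither gene, and it was not limited to the limb. *Meis1* was lower in *Hoxa13* cells without *Hoxa11* than in cells with neither gene in all 5 libraries. It stood at 8.29 against 31.6 CPM (forelimb), 7.81 against 36.4 (hindlimb) and 26.6, 31.0 and 25.3 against 102, 93.0 and 106 (penis). These cells were not thinned, and the penis cells were deeper, so a missing UMI says less of a limb cell.

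Of the 11 TALE cofactors fixed as a list, 2 rose and 1 fell in the penis mesenchyme (among them *Meis1* by 1.17 and *Tgif1* by -1.16), with a median of 0.20 against 0.01 for all genes. In the epithelium 3 rose, among them *Meis1* by 3.03 and *Meis2* by 2.18, with a list median of -0.07 against 0.02. *Meis1* there measured 316, 305 and 410 CPM in the penis and 39.3 and 47.4 in the limb. In the endothelium 1 of 11 rose and 1 fell, in glia 1 of 11 fell, a call that DESeq2 did not make, and in cartilage 3 of 10 rose and 2 fell. Of the 30 limb and genital patterning genes, 14 of 29 tested rose and 6 fell in the mesenchyme, with a median of 0.67. *Isl1*, a factor of the genital tubercle and hindlimb field, rose by 7.17, and *Lhx2*, a factor of limb outgrowth, fell by 6.42 on the log2 scale. In the other classes 5 of 25 rose and 8 fell (cartilage), 7 of 26 rose and 10 fell (endothelium), 9 of 26 rose and 4 fell (epithelium) and 2 of 14 rose and 4 fell (glia). Beside the counts of every list stand the shares of all genes, of which 12.3% rose and 13.1% fell in the mesenchyme. They were 10.1% and 7.54% in cartilage, 8.44% and 10.6% in the endothelium, 5.39% and 5.68% in the epithelium and 8.67% and 7.16% in glia.

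The likeness of each member's pattern to other genes was taken over 47 sums of a class in a library, as Pearson's correlation of log2(CPM + 1) over 12384 genes. The sums share libraries and depth, so these values are descriptions. Among genes other than the members, *Hoxd8* was most like *Arhgef28* (0.91) and, among the members, *Hoxd9* (0.88), with *Hoxd10* next at 0.09. The non-member nearest to *Hoxd9* was also *Arhgef28* (0.85). Of the other members, again leaving out members as partners, *Hoxa11* was closest to *Gas1* (0.96) and *Prrx1* (0.95), *Hoxd13* to *Dnm1* (0.95) and *Prrx1* (0.94), *Hoxa10* to *Hoxa11os* (0.95), *Hoxa13* to *4930447C04Rik* (0.95) and *Hoxd12* to *Hand2* (0.91). *Prrx1* is itself a mesenchyme marker used to form the classes, so its likeness is not independent of the gates. *Hoxa9* was closest to *Sdc1* (0.91), *Hoxd10* to *Lamb2* (0.84) and *Hoxd11* to *Srgap3* (0.91), with *Hoxa11* and *Hoxa10* at 0.94 to each other. Of the 47 sums 15 were of mural-, tendon- or red blood-gated cells, whose labels were not borne out. Over the other 32, an alternative added after seeing the data, 7 of 10 members kept their nearest non-member gene, and the nearest became *Hoxd4* for *Hoxd9* (0.91), *Ahcyl1* for *Hoxd10* (0.86) and *Thbs3* for *Hoxd11* (0.92), while *Hoxd8* and *Hoxd10* stood at 0.28.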

How the data were processed

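The authors deposited UMI counts per gene and cell barcode for 5 libraries of 10x 3′ v3.1 chemistry. The submitters' processing notes name Cell Ranger 7.0.0 and mm10. Whether introns or strand were used in counting is not given in the sources used here. From these counts, cells were kept with 500 to 6000 genes and at most 5% mitochondrial UMIs (penis) or with 100 to 9000 (forelimb) or 9500 (hindlimb) genes and at most 10% (limb), and with a ratio of log10 genes to log10 UMIs of at least 0.8. Gates were applied in order, each at UMIs of at least 3 markers of the class (4 for mesenchyme, 5 for cartilage). The endothelial, epithelial, leukocyte, glial, muscle, mural and red blood gates came first. Cartilage, bone and tendon were then set among cells past none of these, and mesenchyme among cells of no other gate. Cells past the gates of more than 1 lineage (165 to 481 a library) were left out as possible doublets, and no doublet caller was run. Cells past more than 1 of the cartilage, bone and tendon gates were left out too. The looser and stricter alternatives moved all gates at once by 1 marker. In the penis, looser gates left 1587 to 1951 mesenchyme cells a library against 2973 to 3636, and 56 to 63 cartilage cells against 132 to 159. Stricter gates left more penis cells in both classes.

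UMIs were summed per library and class, which holds 2 limb and 3 penis sums, and tested with edgeR 4.0.16 (quasi-likelihood test, TMM scaling, filterByExpr, Benjamini-Hochberg adjustment over all genes tested), in R 4.3.3 with limma 3.58.1. A change was called at an adjusted p under 0.01 and a log2 fold change over 1. SEs were derived as the absolute log2 change divided by the square root of F. Differences between the mesenchyme, cartilage, endothelium and epithelium were tested in 1 fit with the library as a block, without glia. Groups came from the labels. Nothing ties the libraries to litters, so p-values measure the spread between these libraries, and the 2 limb libraries, which differ in limb type, are treated as replicates of limb. DESeq2 1.42.0 was an alternative. Intervals are exact (Poisson or Clopper-Pearson, 95%) and cover counting error only, as do limits at 3 counts. Python 3.11.15 with numpy 2.4.6, scipy 1.17.1 and pandas 2.3.3 was used for the rest. The tests were tried on simulated counts.

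All 10 members are named, with the non-member gene most like each. Of the other-list genes that passed the test only some are named, so a list gene not named may have passed too. The values of 1 gene of the lists are not reported here. The members and lists were chosen with earlier results of these data known, and the glial comparison was added after seeing the data.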

Additional observations from a re-analysis of the deposited data

Results flagged for a closer look

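These results stand out because the penis-to-limb change of a gene, on the log2 scale, differed between cell classes by a test of the difference itself (edgeR's quasi-likelihood test, Benjamini-Hochberg adjusted). In the epithelium minus the mesenchyme the difference was 5.94 for *Hoxd8*, 4.37 for *Hoxd9* and 1.49 for *Hoxa9*. In the endothelium minus the mesenchyme it was 3.79 for *Hoxd8*, 2.18 for *Hoxd9*, -1.51 for *Hoxa10*, -1.62 for *Hoxa11*, -1.03 for *Hoxa13* and -1.70 for *Hoxd11*. The *Hoxa13* difference lost its call without penis replicate 1, without the hindlimb, and with looser (-0.84) or stricter (-1.25) gates, and its endothelial level of 5.00 to 9.16 CPM lay near the leukocyte range of 2.64 to 8.62. The *Hoxd11* difference lost its call with looser gates (-0.95). Limb endothelial and epithelial cells carried fewer markers of their own class at the median than penis ones. The part of this in the endothelial and epithelial differences was not tested. Without the hindlimb the *Hoxa9* difference was 2.53. Without the forelimb the *Hoxd8* difference between endothelium and mesenchyme was 3.06, and without the hindlimb 4.39.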

How the results depend on the processing

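No paired analysis of penis against limb was possible, because the P6 and E15 libraries cannot come from the same animals. The 24 called changes of members were recomputed under 279 alternatives: 248 kept direction and call, 30 kept the direction without the call, and 1 reversed (*Hoxa9* in glia, 0.029 with looser gates). Of the 51 uncalled changes under 583 alternatives, 13 values gained a call, among them *Hoxa13* in the epithelium (1.32 without the deepest 5% of cells) and in cartilage (1.15 without the hindlimb), *Hoxd9* in the endothelium (1.19 with looser gates) and the endothelium-minus-mesenchyme difference of *Hoxd13* (-1.03 with library totals alone, -1.52 with stricter gates). The calls for *Hoxd8* in the mesenchyme and for *Hoxa9*, *Hoxd8* and *Hoxd9* in the epithelium held under every alternative run. Of those lost, *Hoxd9* in the mesenchyme was -0.74 without the forelimb, *Hoxa11* in cartilage had an adjusted p of 0.0144 in edgeR with looser gates, *Hoxd8* in the endothelium was 0.74 with stricter gates and 0.93 without the deepest 5% of cells, and *Hoxa11* and *Hoxd11* there were -0.74 and -0.45 with looser gates. *Hoxd9* in glia was 1.19 by DESeq2 and lost its call.

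Uncalled changes turned sign in 40 values. Using library totals alone, *Hoxa10* in cartilage was -0.011 and the epithelium-minus-mesenchyme difference of *Hoxd10* -0.056. With every gene that had a UMI, they were -0.037 and -0.019, and *Hoxa10* in the epithelium was 0.014. Stricter gates gave *Hoxa10* -0.030 in cartilage and 0.19 in the epithelium, *Hoxd11* 0.42 and *Hoxd13* 0.027 in the epithelium, and differences from the mesenchyme of 0.094 for *Hoxa9* in cartilage and 0.093 for *Hoxa10* in the epithelium. Looser gates gave *Hoxa11* 0.019 and *Hoxd10* -0.25 in the epithelium, *Hoxa10* 0.076 and *Hoxd13* 0.65 in glia, and differences of 0.21 (*Hoxa10*), -5.45 (*Hoxd8*) and -0.11 (*Hoxd9*) in cartilage and -0.22 for *Hoxd10* in the epithelium. Without the deepest 5% of cells *Hoxd11* and *Hoxd13* in the epithelium were 0.13 and 0.50 and the difference of *Hoxa13* 0.064. With every barcode the difference of *Hoxd10* was -0.13.

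Leaving out a library moved *Hoxa10* from -0.10 to 0.31 in the mesenchyme, from -0.0047 to 0.068 in cartilage and from -0.26 to 0.39 in the epithelium, *Hoxd10* from -0.15 to 0.44 in the mesenchyme and from -0.33 to 0.66 in the epithelium, *Hoxa13* from -0.074 to 0.71 in the endothelium, *Hoxd11* from -0.26 to 0.0051 and *Hoxd13* from -0.25 to 0.026 in the epithelium, and *Hoxd13* from -0.25 to 0.057 in glia. The differences ran from -0.18 to 0.047 for *Hoxa9* and from -0.28 to 0.075 for *Hoxa10* in cartilage, and from -0.20 to 0.053 for *Hoxa10* and from -0.24 to 0.20 for *Hoxd10* in the epithelium. Genes that rose in the epithelium numbered 450 to 674, and those with a higher or lower change than the mesenchyme 351 to 526 and 405 to 648.

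Counts of genes over 1.5 times off the reported ones were, with every gene that had a UMI, 1427 falling in cartilage and 1002 in the endothelium. With looser gates, which shrank the penis cartilage and mesenchyme classes, 687 rose and 361 fell in cartilage. There 332 and 357 differed from the mesenchyme, while 745 were lower in the endothelium than in the mesenchyme and 213 in the epithelium. The last count was 1110 with every barcode and 415 without the deepest 5% of cells. Without thinning, the share of cells was higher in all penis libraries for 8 members rather than 5, and lower for 1 rather than 2. No such count was taken over all genes, and the penis cells were deeper. These counts are therefore not read as a result about the members. Levels of a few UMIs, as in limb epithelium and glia, limit the precision of the largest changes, and the causes of these shifts were not tested.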
